A study of Rattus norvegicus with 8 samples.

Results

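Crem, Nfil3, Sik1, Rgs2, Irs2, Inhba, Ptgs2, Pdk3 and Coq10b are genes that neurons transcribe after a delay when they fire, or when cAMP rises and the transcription factor CREB is active. They were picked by symbol as delayed or CREB-responsive activity genes, with their levels in these libraries already known, so their values are a description and no test on them counts as evidence. All 9 are among the 16871 gene symbols of the deposited count table, and all 9 passed the filter on low counts that kept 11372 genes. RNA made in the last 30 min of culture was labelled with 2 mM bromouridine (BrU, a base analogue), captured with an antibody and sequenced (BrU-seq), which reads transcription more closely than total RNA does.

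The cells were primary neuronal cultures from Sprague Dawley rat pups of postnatal day 1 to 2. The labels name hippocampal neurons, while the growth protocol states that cortical tissue was added to reach enough cells, so each library mixes both regions and their glia. Cultures got 1 µM tetrodotoxin (TTX, which blocks voltage-gated sodium channels and so stops action potentials) or water for 24 h from day 14 in vitro, then 48 h of washout, then TTX or water for 4 h on day 17. Group TT had TTX both times, TH only the first time, HT only the second time and HH never, and each group had 2 libraries. The labels do not say whether the libraries of a group came from separate cultures or litters, so the spread between them may be technical. The title and the protocol set the question as whether an earlier silence changes what a later one does.

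CREB binds the cAMP response element (CRE) and switches on target genes once calcium or cAMP signals have led to its phosphorylation and to the entry of its CRTC coactivators into the nucleus. Several targets feed back on the pathway: Sik1 encodes a kinase that phosphorylates CRTC proteins and holds them in the cytoplasm, and Crem encodes a CREB relative whose short ICER form, made from an internal promoter, represses CRE-driven genes. In neurons this wave follows the rapid genes of the first minutes and includes signalling, secreted and metabolic proteins.

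RefSeq promoter windows on build GRCr8, from 250 bases before to 50 after an annotated start, were held for 8 of the 9 genes, with 3 starts for Crem. The deposited counts were made on build rn6 and were joined to these windows by symbol only. The CRE palindrome TGACGTCA was in 2 of the 10 windows, both of Crem, against 1.83% of all 33469 windows. Those 2 Crem starts lie 50731 and 51424 bases downstream of the first, inside the gene, and the later of them holds 2 palindromes, as do 0.0418% of all windows. The CRE core, TGACG or its complement CGTCA, which each palindrome also contains, was in 7 of the 10 windows, which belong to 5 of the 8 genes (Crem, Nfil3, Sik1, Rgs2 and Coq10b), against 21.2% of all windows. Sik1 and Coq10b each hold a pair of CGTCA cores whose first bases are 11 apart, an arrangement noticed on reading the windows and present in 0.0568% of all of them on either strand. That share counts only this exact distance, which was set after it was seen, so it does not tell how unusual a close pair is. These 4 windows are printed because they carry the palindromes or the pairs. Capitals mark each palindrome or core, and sequences run 5′ to 3′ on the gene's strand.
Crem start 2, chr17:58984547-58984846, plus strand: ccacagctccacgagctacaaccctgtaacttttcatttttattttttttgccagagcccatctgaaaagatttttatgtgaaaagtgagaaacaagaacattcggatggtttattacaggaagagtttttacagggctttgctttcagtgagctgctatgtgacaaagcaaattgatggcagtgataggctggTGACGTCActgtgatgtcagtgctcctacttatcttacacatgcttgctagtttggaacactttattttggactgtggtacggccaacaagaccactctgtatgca
Crem start 3, chr17:58985240-58985539, plus strand: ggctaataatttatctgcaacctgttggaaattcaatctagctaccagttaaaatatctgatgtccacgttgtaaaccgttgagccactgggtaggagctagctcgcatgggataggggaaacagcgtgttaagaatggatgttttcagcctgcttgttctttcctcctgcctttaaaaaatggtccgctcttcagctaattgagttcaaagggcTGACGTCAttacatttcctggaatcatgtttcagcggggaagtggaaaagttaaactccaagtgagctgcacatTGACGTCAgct
Sik1, chr20:9958597-9958896, minus strand: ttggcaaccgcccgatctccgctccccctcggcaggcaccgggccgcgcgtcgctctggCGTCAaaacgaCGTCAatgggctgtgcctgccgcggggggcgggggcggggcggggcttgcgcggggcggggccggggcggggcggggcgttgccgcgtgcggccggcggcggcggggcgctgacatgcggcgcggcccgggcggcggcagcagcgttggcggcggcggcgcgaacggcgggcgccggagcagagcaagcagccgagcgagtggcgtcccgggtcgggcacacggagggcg
Coq10b, chr9:64047918-64048217, plus strand: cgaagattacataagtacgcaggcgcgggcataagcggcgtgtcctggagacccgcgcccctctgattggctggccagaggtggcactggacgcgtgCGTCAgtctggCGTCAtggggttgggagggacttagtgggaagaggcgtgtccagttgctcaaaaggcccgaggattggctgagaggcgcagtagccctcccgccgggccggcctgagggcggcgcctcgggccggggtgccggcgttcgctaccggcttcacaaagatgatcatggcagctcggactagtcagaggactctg
Both searches covered both strands. A match is only a match of letters, and no match in the windows of Inhba, Ptgs2 and Pdk3 says nothing of sites elsewhere in these genes. Crem counts pool all of its transcripts, so the internal starts could not be read apart from the first.

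**Figure D1:**
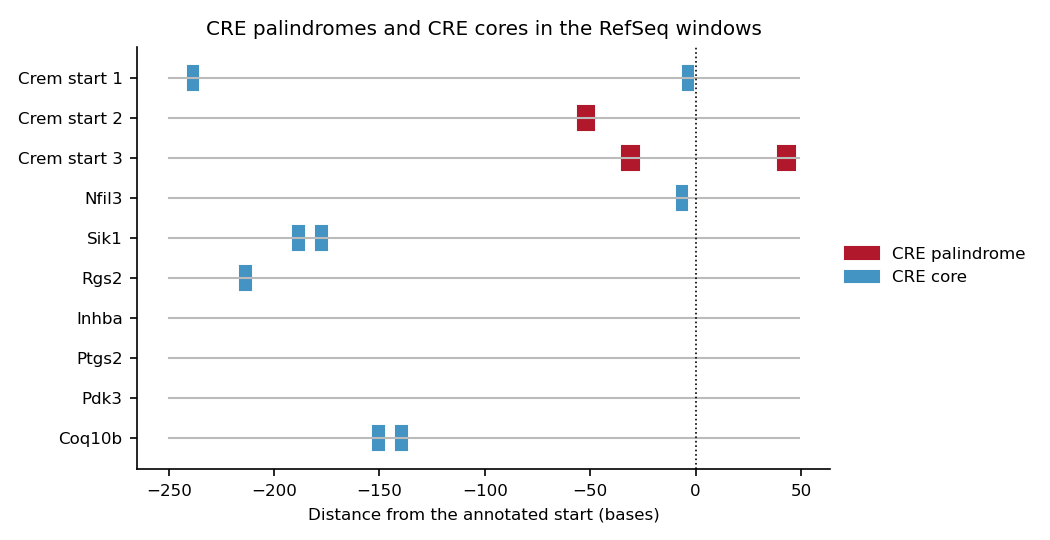
Position of CRE palindromes (red) and CRE cores outside a palindrome (blue) along 10 RefSeq windows of 8 genes, as distance in bases from the annotated start (dotted line). Only the internal Crem starts 2 and 3 carry palindromes, while Sik1 and Coq10b each carry a closely spaced pair of cores.

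Levels are given as CPM, a gene's count as a share of its library total after scaling by the trimmed mean of M values (TMM). They compare libraries for 1 gene and not genes with each other, since lengths are not taken into account. All 9 genes had their highest value in HH replicate 1, which was the highest library for 21.6% of all genes tested. HH replicate 1 exceeded 1.5 times the median of the other 7 libraries in 8 of the 9 genes, Crem being the exception, against 690 of all 11372 genes, and HT replicate 1 did so in 3 (Rgs2, Inhba and Ptgs2), against 321 of all genes. No other library did so for any of the 9. In HH the replicates differed by over 2-fold in 5 of the 9 genes and in 546 of 11372 tested, with a median log2 gap over the 9 of 1.20 in favour of replicate 1. That median gap was -0.10 in TT, 0.32 in TH and 0.34 in HT. Over 2-fold were 1 member and 281 genes in HT, 1 and 180 in TH, and 0 and 155 in TT. By Pearson correlation of log2 CPM over all tested genes, every library was closest to a library of another group. HH replicate 1 had 0.982 with HT replicate 1 and 0.974 with HH replicate 2. These are bulk libraries, in which fewer cells of a type and less RNA per cell cannot be told apart.

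**Figure D2:**
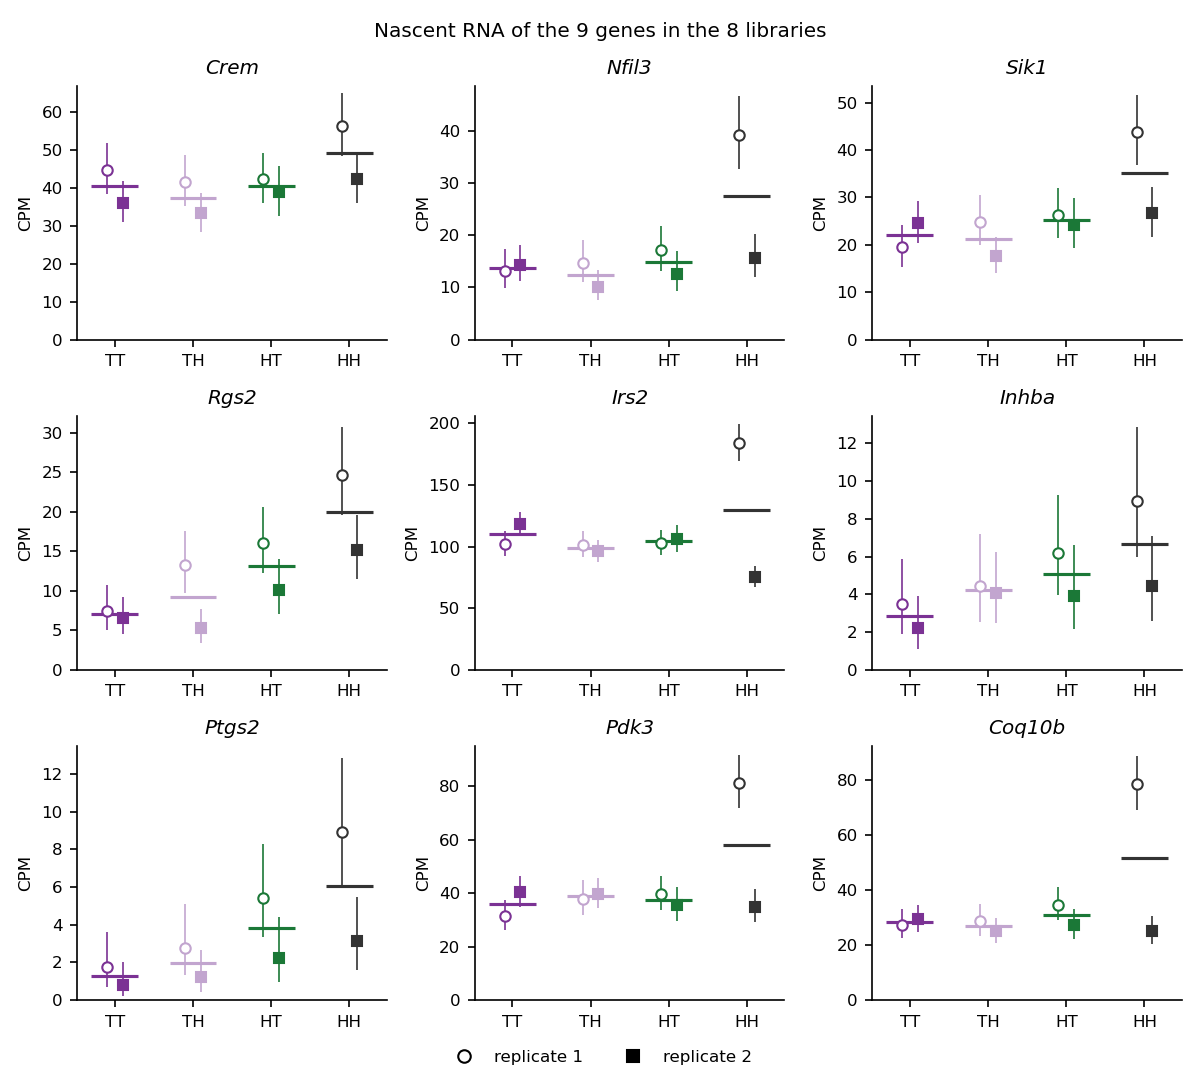
CPM of each of the 9 genes (y axes, from 0) in the groups TT, TH, HT and HH, with replicate 1 as an open circle, replicate 2 as a filled square, the group mean as a bar and exact 95% binomial intervals of the count as vertical lines. HH replicate 1 is highest in every panel, and HH replicate 2 is the lowest of the 8 libraries for Irs2 and Coq10b.

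Crem, the CREB relative, had 44.6 and 36.1 CPM in TT, 41.4 and 33.2 in TH, 42.2 and 38.7 in HT and 56.1 and 42.3 in HH. It was the flattest of the 9, with HH replicate 1 at 1.33 times HH replicate 2 and at 1.26 times the next highest library, TT replicate 1. Nfil3, a basic leucine zipper repressor that competes with the clock output factors DBP, TEF and HLF, had 13.2 and 14.3 CPM in TT, 14.6 and 10.1 in TH, 17.1 and 12.6 in HT and 39.2 and 15.6 in HH. One library thus stood at 2.29 times the next, and the other 7 lay within a 1.69-fold range. Sik1, the kinase that restrains CRTC, had 19.4 and 24.5 CPM in TT, 24.9 and 17.6 in TH, 26.4 and 24.1 in HT and 43.8 and 26.6 in HH. It was the only member whose second highest library was also HH, and HT replicate 1 was close behind HH replicate 2. The HT values of Crem and Sik1 lay below both HH values, for both genes by a margin far inside the counting intervals, while their TT and TH values overlapped.

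Rgs2, which speeds the switching off of Gq-coupled receptor signals, had 7.47 and 6.57 CPM in TT, 13.3 and 5.26 in TH, 16.0 and 10.1 in HT and 24.7 and 15.1 in HH. Both TT libraries lay below both HT libraries, though the counting intervals of TT replicate 1 and HT replicate 2 overlapped. The TH replicates differed by more than the TT and HT means did. Irs2, an adaptor that docks on activated insulin and IGF1 receptors, had 102 and 118 CPM in TT, 102 and 96.1 in TH, 103 and 106 in HT and 184 and 75.4 in HH. The 2 HH libraries were thus the highest and the lowest of all 8, and their exact 95% binomial intervals, 169 to 199 and 66.9 to 84.6 CPM, were far apart. The HH mean was 130 ± 76.7 CPM (SD, n = 2).

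Inhba encodes the βA subunit of activin A, a secreted factor of the TGF-β family. It had 3.49 and 2.19 CPM in TT, 4.42 and 4.05 in TH, 6.21 and 3.93 in HT and 8.94 and 4.43 in HH. Both TT libraries lay below every other library, though TT replicate 1 and HT replicate 2 both had 14 counts. Ptgs2, the inducible cyclooxygenase of prostaglandin synthesis, had 1.74 and 0.797 CPM in TT, 2.76 and 1.21 in TH, 5.43 and 2.25 in HT and 8.94 and 3.13 in HH. These rest on few reads, from 4 counts in TT replicate 2 to 29 in HH replicate 1 for Ptgs2 and from 11 to 29 for Inhba. The exact intervals of Ptgs2 ran from 0.217 to 2.04 CPM in TT replicate 2 and from 5.99 to 12.8 CPM in HH replicate 1, and those of its TT and TH libraries overlapped.

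Pdk3, a kinase that inhibits pyruvate dehydrogenase in mitochondria, had 31.4 and 40.2 CPM in TT, 37.8 and 39.7 in TH, 39.6 and 35.4 in HT and 81.1 and 35.0 in HH. Coq10b, a coenzyme Q binding protein of the respiratory chain, had 27.4 and 29.5 CPM in TT, 28.7 and 25.1 in TH, 34.7 and 27.2 in HT and 78.6 and 25.0 in HH. In these genes 7 libraries lay within a 1.28-fold and a 1.38-fold range and HH replicate 1 stood at 2.02 and 2.27 times the next. Over the 7 libraries without it, Pdk3 averaged 37.0 ± 3.25 CPM and Coq10b 28.2 ± 3.29 CPM (SD over 7 libraries of 4 groups).

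In the order of group means HH came first for all 9 genes. HT came next for 7, TT for Irs2 and TH for Pdk3. TT was lowest for Rgs2, Inhba, Ptgs2 and Pdk3, and TH for Crem, Nfil3, Sik1, Irs2 and Coq10b. Neighbours in that order were separate in both libraries in 4 places: HT below HH for Crem and Sik1, TH below HT for Irs2 and TT below TH for Inhba. In all 4 the counting intervals of the nearest libraries overlapped. All other neighbours overlapped, among them HH with the next group in the remaining 7 genes.

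Correlations among the 9 genes were lower at the median once HH replicate 1 was left out. Over 8 libraries the log2 CPM of all 36 pairs correlated above 0, with a median Pearson r of 0.81 and a range of 0.38 to 0.96. Without HH replicate 1 the median over 7 libraries was 0.39, 27 pairs were above 0 and the range was -0.66 to 0.91. Rgs2, Ptgs2 and Inhba kept high values without it, at 0.91 for Rgs2 with Ptgs2, 0.90 for Inhba with Ptgs2 and 0.69 for Rgs2 with Inhba. So did Nfil3 with Sik1 (0.87) and Nfil3 and Sik1 with Rgs2 (0.82 each). Irs2 lay below 0 with Crem, Nfil3, Sik1, Rgs2, Inhba and Ptgs2, and Pdk3 with Crem stood at -0.66. The points share libraries and depth, so these values only describe.

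**Figure D3:**
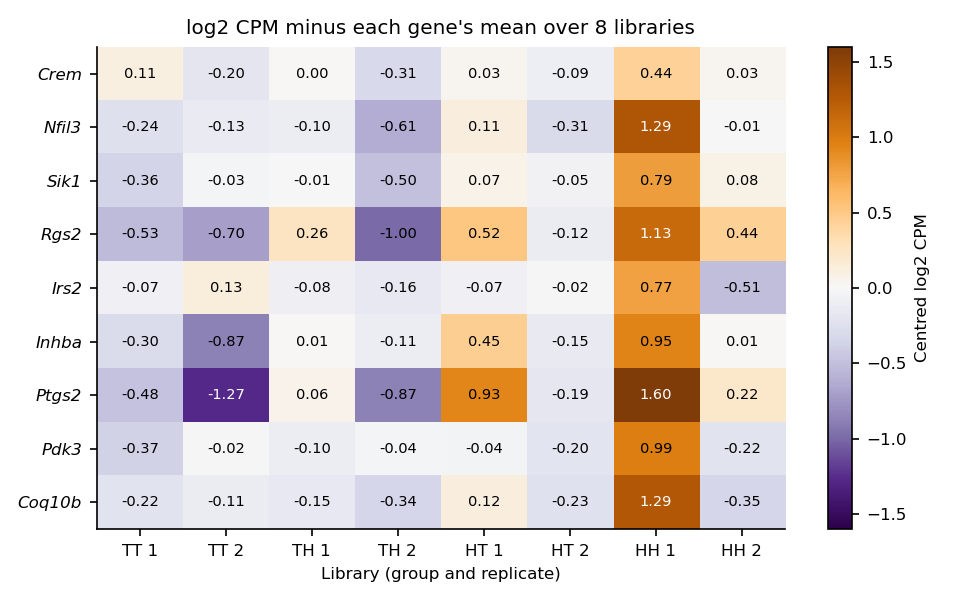
Log2 CPM of the 9 genes (rows) in the 8 libraries (columns) after subtracting each gene's mean over the 8, with the value printed in each cell and orange for above the mean. HH replicate 1 is above the mean for all 9 genes, and Rgs2, Inhba and Ptgs2 also stand out in HT replicate 1 (0.52, 0.45 and 0.93) and are lowest in TT or TH libraries.

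The mean of these centred values put HH replicate 1 at 1.03, HT replicate 1 at 0.24, TH replicate 1 at -0.013, HH replicate 2 at -0.033, HT replicate 2 at -0.15, TT replicate 1 at -0.27, TT replicate 2 at -0.35 and TH replicate 2 at -0.44. By a rule that took the 10 highest Pearson correlations with this mean over 8 libraries, the most alike genes included Arc (0.99), Cry2, Tec, Ppm1h, Bdnf, Pth2r, Fosb, Ap2b1 and Pam (0.96). Arc, a synaptic activity gene, had 4.24 and 5.18 CPM in TT, 8.56 and 3.64 in TH, 9.31 and 6.46 in HT and 41.6 and 7.04 in HH. Cry2, a repressor of the circadian clock, kept an r of 0.96 without HH replicate 1, and was the only 1 of the 10 that was also among the 10 most alike over those 7 libraries. With Spearman in place of Pearson correlation over 8 libraries, 1 of the 10 was shared. Of the 10995 genes compared, 168 had a Pearson r above 0.9 over 8 libraries, so membership of the 10 is not a sign of shared control. For single members the most alike gene was Tpd52 for both Ptgs2 (0.99) and Rgs2 (0.96), Sik3 for Coq10b (0.99), Cd24 for Sik1 (0.98), Aasdhppt for Irs2 (0.98), Myh10 for Inhba (0.98), Mat2a for Nfil3 (0.98), Rela for Pdk3 (0.97) and Rpe65 for Crem (0.96). Each is the highest of 10995 genes over 8 libraries, so high values are built in. Without HH replicate 1 these pairs ran from 0.85 (Sik3 with Coq10b) to 0.99 (Tpd52 with Ptgs2).

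All 11372 genes were fitted in 1 edgeR model, so each SE beside a log2 change draws on the spread within all 4 groups. No member was called at an adjusted p under 0.05 in any of the 7 comparisons made, where 0% of all genes tested were called in each. With no call among all genes, the count for the members says nothing of them in particular. At an unadjusted p under 0.05 edgeR had 186 to 789 genes in a comparison, limma-voom 191 to 770 and DESeq2 35 to 414. DESeq2 called 13 genes for the second TTX averaged over history, none of them a member, and 0 in the other 6 comparisons, and limma-voom called 0 in all 7. Members under that unadjusted line in edgeR were 4 in TH against HH (Nfil3, Sik1, Rgs2 and Ptgs2), where 4.08% of all genes were under it. For history averaged over the second treatment they were also 4 (Sik1, Rgs2, Inhba and Ptgs2), with 5.75% of all genes. In TT against HT it was Ptgs2 alone, with 2.35% of all genes. In the other 4 comparisons the members under it were 0, with 6.49% of all genes in HT against HH, 2.64% in TT against TH, 1.64% in the interaction and 6.94% for the second TTX averaged over history. Since the 9 were chosen with these values known, the counts only describe them.

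For 4 h of TTX in cultures with no earlier silence (HT against HH), every one of the 9 genes was below 0 and the median change was -0.59 (log2), where 49.8% of all genes lay below 0 and their median was 0.00071. Nfil3 stood at -0.86 ± 0.40, Coq10b at -0.72 ± 0.48 and Pdk3 at -0.62 ± 0.34. Ptgs2 stood at -0.60 ± 0.59, Rgs2 at -0.59 ± 0.40 and Sik1 at -0.47 ± 0.25. The values nearest 0 were Inhba at -0.36 ± 0.41, Irs2 at -0.30 ± 0.36 and Crem at -0.28 ± 0.19. The 2 groups did not overlap in 2 members, Crem and Sik1, both lower in HT by margins far inside the counting intervals, as in 16.7% of all genes. The smallest adjusted p among the 9 was 0.779 (edgeR, Nfil3). Without HH replicate 1 the median was 0.10, with 4 members below 0 and 5 above. Then Irs2 stood at 0.47 ± 0.16, Coq10b at 0.31 ± 0.23 and Ptgs2 at 0.31 ± 0.66, while Nfil3 and Sik1 both stood at -0.07, with an SE of 0.30 and 0.26.

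With HH replicate 2 left out instead, which makes HH replicate 1 the only control library and assumes that it varies like the other groups, 3 of the 9 passed in HT against HH. These were Coq10b (-1.34), Pdk3 (-1.11) and Irs2 (-0.82, edgeR), where 0.281% of all genes were called. The 9 were chosen with their high values in HH replicate 1 known. Passing against that library alone is favoured by this choice, so the difference from the share of all genes is no evidence. For Irs2 and Coq10b the library left out was also the lowest of all.

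In previously silenced cultures (TT against TH) the members were divided, 4 below 0 and 5 above, with a median of 0.070 against 0.0040 for all genes. Ptgs2 stood at -0.61 ± 0.83, Inhba at -0.59 ± 0.46 and Rgs2 at -0.35 ± 0.46. The other 6 lay between -0.11 for Pdk3 (± 0.34) and 0.18 for Nfil3 (± 0.42). The split rested on single TH libraries: without TH replicate 1 it was 2 below 0 and 7 above (median 0.20), and without TH replicate 2 it was 8 below and 1 above (median -0.085). Without TT replicate 2 it was 5 below and 4 above (median -0.11). Inhba was lower without overlap in TT, as in 14.1% of all genes, and Irs2 higher without overlap, as in 15.9%, with the nearest libraries both at 102 CPM after rounding. No HH library enters these 2 group means. Whether the TTX difference depended on history was tested as the interaction, in which 7 members lay above 0 with a median of 0.46 and Nfil3 furthest out at 1.04 ± 0.58. Without HH replicate 1 that median was -0.22, with 6 members below 0.

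For the earlier silence alone, after 48 h of washout (TH against HH), all 9 members again lay below 0, with a median of -0.73 against 0.0011 for all genes. Ptgs2 stood at -1.62 ± 0.65, Nfil3 at -1.15 ± 0.40 and Rgs2 at -1.14 ± 0.41. Coq10b stood at -0.93 ± 0.48, Sik1 at -0.73 ± 0.26, Inhba at -0.64 ± 0.42 and Pdk3 at -0.57 ± 0.34. Crem stood at -0.40 ± 0.19 and Irs2 at -0.38 ± 0.36. In 6 members (Crem, Nfil3, Sik1, Rgs2, Inhba and Ptgs2) both TH libraries lay below both HH libraries, as in 13.4% of all genes. In all 6 the nearest libraries were TH replicate 1 and HH replicate 2, whose counting intervals overlapped. They stood at 41.4 and 42.3 CPM for Crem, 13.3 and 15.1 for Rgs2 and 4.42 and 4.43 for Inhba. Ptgs2 had 10 and 12 counts there. The 6 were thus not set apart from HH replicate 2 beyond counting error. Without HH replicate 1 the median was -0.19, with Rgs2 at -0.76 ± 0.45, Ptgs2 at -0.72 ± 0.72, Nfil3 at -0.36 ± 0.30 and Sik1 at -0.34 ± 0.26, and 3 members (Irs2, Pdk3 and Coq10b) above 0. With HH replicate 1 as the lone control, Coq10b (-1.55), Nfil3 (-1.68), Irs2 (-0.90) and Pdk3 (-1.06, edgeR) passed, where 1.06% of all genes were called. Here too passing is favoured by the choice of the 9 and is no evidence. HT against HH and TH against HH share the HH libraries, so their like values are not independent.

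Under a second TTX, the earlier silence (TT against HT) rests on group means that hold no HH library, and 8 of 9 members lay below 0 with a median of -0.12 against 0.00040 for all genes. Ptgs2 stood at -1.64 ± 0.74, Rgs2 at -0.91 ± 0.44 and Inhba at -0.86 ± 0.45, and the remaining 6 lay between -0.20 for Sik1 (± 0.26) and 0.079 for Irs2 (± 0.36). In these 3 the groups did not overlap, as in 16.2% of all genes, and none was called (edgeR). The nearest libraries were TT replicate 1 and HT replicate 2, with overlapping counting intervals in all 3. Their counts were 7 and 8 for Ptgs2, 30 and 36 for Rgs2 and 14 and 14 for Inhba. HT replicate 1 was the higher HT library in all 3. Without it Ptgs2 was at -0.86, Rgs2 at -0.53 and Inhba at -0.49, and the 9 genes divided into 4 below 0 and 5 above, with a median of 0.024. Averaged over the second treatment, all 9 members lay below 0 for the earlier silence, with a median of -0.53, Ptgs2 at -1.63 ± 0.49 and Rgs2 at -1.02 ± 0.30, and 7 did so without HH replicate 1 (median -0.24). With HH replicate 1 as the lone control, Coq10b (-0.84) and Nfil3 (-0.90, edgeR) passed in this average, where 0.879% of all genes were called. The same limit from the choice of the 9 applies to these calls. Averaged over history, all 9 lay below 0 for the second TTX, with a median of -0.34, and 5 did so without HH replicate 1 (median -0.0025).

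**Figure D4:**
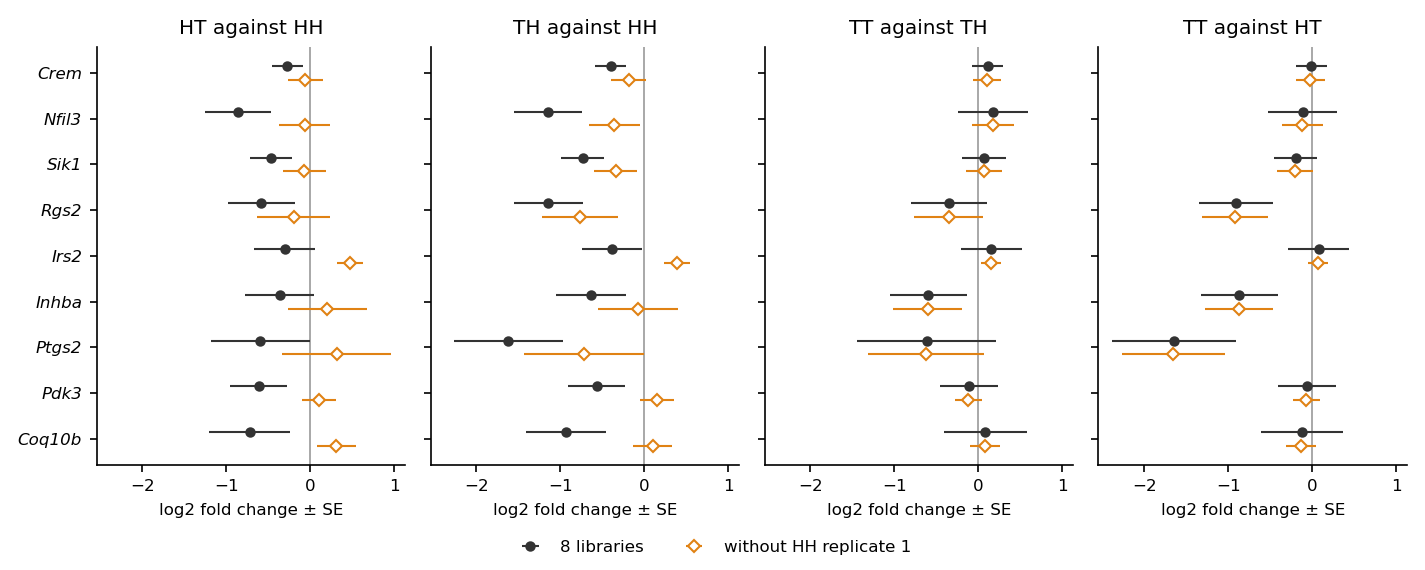
Log2 fold changes (x axis) with 1 SE of the 9 genes (rows) in 4 comparisons, from all 8 libraries (filled circles) and without HH replicate 1 (open diamonds). Leaving that library out moves the points toward or past 0 in the 2 panels that use HH. It enters neither group of the other 2 panels, where the points barely move by construction.

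The genes around the 9 in their pathways were read from lists of their known partners. Of 24 tested genes of cAMP to CREB signalling, 0 were called in any comparison, 15 lay below 0 in HT against HH (median -0.045) and 14 in TT against TH (median -0.0068). In TH against HH 17 lay below 0 (median -0.17). Without HH replicate 1, 9 lay below 0 in HT against HH (median 0.11) and 10 in TH against HH (median 0.021). Prkar1a, a regulatory subunit of protein kinase A, stood at -0.29 ± 0.13 in HT against HH, the kinase gene Stk11 at 0.31 ± 0.15 and the cAMP phosphodiesterase gene Pde4d at -0.35 ± 0.20. Pde4d had 1626 CPM in HH replicate 1 and 1106 in HH replicate 2, against 1102 and 1036 in HT. In TT against TH the phosphodiesterase genes Pde4a and Pde4b stood at -0.45 ± 0.13 and 0.39 ± 0.19.

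Of 24 other genes known as CREB targets, 0 were called, 23 lay below 0 in HT against HH (median -0.73) and 24 in TH against HH (median -0.74). Without HH replicate 1, 10 of 24 lay below 0 in HT against HH (median 0.099) and 13 in TH against HH (median -0.045). In all, 19 of the 24 had their highest value in HH replicate 1. Ppargc1a, a coactivator of mitochondrial genes, stood at -0.60 ± 0.13 in HT against HH. It had 93.7 and 91.5 CPM in HT against 154 and 128 CPM in HH. Both HH libraries were thus above both HT libraries, as in 16.7% of all genes. It was named for the smallest p of this list, and its adjusted p was 0.519 (edgeR). Pcsk1, a prohormone convertase gene, stood at -0.99 ± 0.37 with 18.4 and 10.9 CPM in HT and 38.6 and 20.6 CPM in HH, and the phosphatase gene Dusp1 at -0.74 ± 0.30. In TT against TH 18 of 24 lay below 0 (median -0.12), with Ppargc1a at -0.25 ± 0.13 and the neuropeptide gene Penk at -0.29 ± 0.15.

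Relatives and partners of single members showed smaller medians in HT against HH, and none was called. The values below use all 8 libraries. Without HH replicate 1 the medians were -0.052 for the clock factors, 0.056 for the other RGS genes and -0.040 for the prostaglandin genes. They were then -0.033 for insulin and IGF signalling, -0.064 for coenzyme Q synthesis, -0.033 for pyruvate dehydrogenase control and 0.076 for activin and inhibin signalling. Of 5 clock factors around Nfil3, 3 lay above 0 (median 0.064), with Dbp at 0.43 ± 0.23, Nr1d2 at 0.26 ± 0.14 and Bhlhe40 at -0.17 ± 0.19. Of 12 other RGS genes 7 lay below 0 (median -0.17), with Rgs8 at -0.45 ± 0.20, Rgs3 at 0.39 ± 0.17 and Rgs17 at -0.37 ± 0.17. Members of all these partner lists lay on both sides of 0. Of 6 tested prostaglandin genes of 14 listed, 5 lay below 0 (median -0.26), with Ptges3 at -0.24 ± 0.13, Ptger3 at -0.33 ± 0.31 and Tbxas1 at 0.74 ± 0.34. The 15 insulin and IGF signalling genes had a median of 0.037, with Akt1 at 0.40 ± 0.16, Igf1 at -0.86 ± 0.35 and Foxo1 at 0.30 ± 0.14. Akt1 encodes a kinase and Foxo1 a transcription factor downstream of the insulin receptor. Igf1 had 50.9 CPM in HH replicate 1 and 25.6 in HH replicate 2, against 22.5 and 19.1 in HT. The 9 coenzyme Q synthesis genes had a median of -0.078, with Coq2 at -0.20 ± 0.16, Coq5 at -0.25 ± 0.23 and Coq7 at -0.26 ± 0.24. The 10 genes of pyruvate dehydrogenase control had a median of -0.063, with Dld at -0.23 ± 0.13, Pdp1 at -0.45 ± 0.25 and Pdk2, the paralogue of Pdk3, at 0.41 ± 0.29. Pdp1 had 23.4 CPM in HH replicate 1 and 14.3 in HH replicate 2, against 13.2 and 14.3 in HT. Pdk2 had 13.9 CPM in HH replicate 1 and 24.8 in HH replicate 2, against 25.1 and 27.0 in HT. The 13 activin and inhibin signalling genes had a median of -0.0086, with Bambi at -0.89 ± 0.48, Acvr1b at 0.21 ± 0.14 and Inhbb, the sister subunit of Inhba, at 0.39 ± 0.27.

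In TT against TH, Pdp2, a pyruvate dehydrogenase phosphatase gene, stood at -0.998 ± 0.38 and the kinase gene Pdk4 at 0.73 ± 0.53. Inhbb stood at -0.50 ± 0.26, the receptor gene Acvr1 at -0.21 ± 0.12, the clock repressor gene Nr1d1 at -0.32 ± 0.31, Nr1d2 at 0.16 ± 0.14, Rgs20 at 0.24 ± 0.13 and Rgs12 at 0.21 ± 0.13. Pla2g4a stood at 0.31 ± 0.43, Ptges3 at 0.072 ± 0.12, Pik3r1 at 0.29 ± 0.14, Igf2 at 0.86 ± 0.47, Coq2 at 0.14 ± 0.15 and Pdss2 at 0.12 ± 0.14. None of these was called (edgeR).

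**Figure D5:**
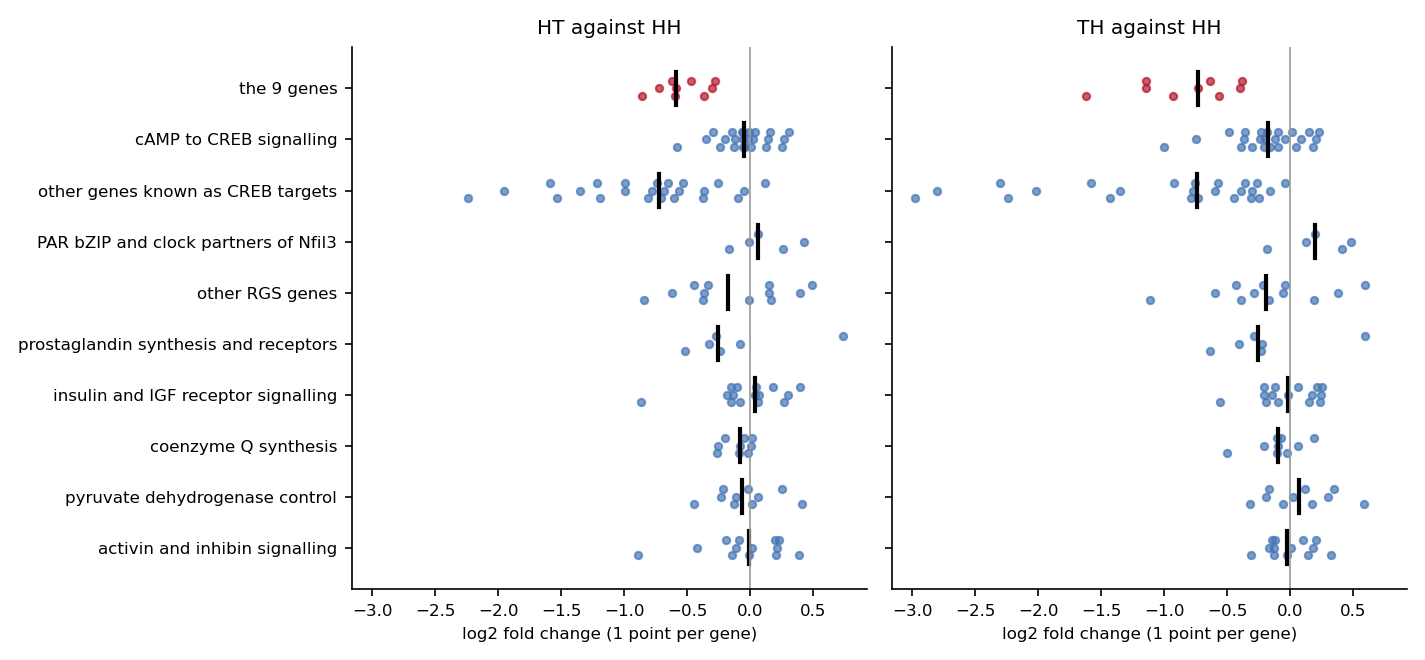
Log2 fold change (x axis, 1 point per tested gene, black bar for the median) of the 9 genes and of 9 lists of related genes (rows) in HT against HH and TH against HH, from all 8 libraries. The 9 genes and the other CREB targets lie mostly below 0, with medians of -0.59 and -0.73 in HT against HH, while the medians of the other 8 lists run from -0.26 to 0.064 in HT against HH and from -0.26 to 0.19 in TH against HH, the prostaglandin genes being lowest in both. Without HH replicate 1 (not drawn) the medians in HT against HH were 0.10 for the 9 genes and 0.099 for the other CREB targets.

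Library totals ran from 3489176 to 4959887 counts, and the TMM factor was 0.901 in HH replicate 1 and 0.995 to 1.04 in the other 7 libraries. Neuronal markers were present in every library, their 7 genes summing to 3529 to 4196 CPM in TT, 3699 to 4374 in TH, 3846 to 4237 in HT and 4078 to 5681 in HH, with HH replicate 1 the highest. The 4 inhibitory neuron markers were highest in both HH libraries, at 952 CPM in replicate 1 and 720 in replicate 2. The other groups had 474 to 706 CPM. The 6 oligodendrocyte lineage markers were lowest in both HH libraries, at 431 CPM in replicate 1 and 502 in replicate 2. The other groups had 544 to 701 CPM. Astrocyte markers (5 genes) summed to 1140 to 1804 CPM, with HH replicate 1 inside that range. Excitatory neuron markers (5 genes) summed to 686 to 1026 CPM, with HH replicate 1 at 913, below HH replicate 2 at 1023. Proliferation markers (4 genes) summed to 80.4 to 140.4 CPM. Of the 3 hippocampal markers all were detected in every library, and their sum was 790.0 to 842 CPM in TT, 585 to 716 in TH, 638 to 702 in HT and 602 to 607 in HH. That sum is mostly Zbtb20 (481 to 738 CPM), against 54.4 to 82.0 for Prox1 and 21.3 to 39.6 for Wfs1. Resting mostly on 1 gene, the sum was not taken as a measure of the share of hippocampal neurons. Of the 5 microglial markers P2ry12 and Aif1 were at 0 in at least 1 library and the sum stayed between 7.50 and 11.2 CPM, while the 4 endothelial and mural markers, with Cldn5 at 0 in at least 1 library, summed to 14.8 CPM in HH replicate 1 and 23.9 to 27.7 CPM elsewhere. The part of these marker differences in the values of the 9 genes was not tested.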

How the data were processed

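The deposited table holds raw read counts per gene symbol, as the authors deposited them, with no scaling. The submitters' processing notes name rn6 as the build and, among tools, TopHat2, Bowtie2, featureCounts and FastQC. No version, annotation, strand setting or intron setting is given in the sources available here, so overlapping or antisense genes may share reads, and counts of intron-rich genes depend on whether introns were included. A column was tied to its sample through the leading number of that sample's description, and 2 columns with no such sample were left out.

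In R 4.3.3 with edgeR 4.0.16, genes were kept by filterByExpr (minimum count 10), scaled by TMM and fitted as 4 group means (4 residual degrees of freedom) with the robust quasi-likelihood test and Benjamini-Hochberg adjustment at 0.05. Standard errors are the log2 change over the square root of F. Log2 CPM used a prior count of 2. Library totals of 3489176 to 4959887 set the precision, and the binomial intervals (exact, 95%) cover counting error only. Alternatives were DESeq2 1.42.0, DESeq2 size factors, limma-voom (limma 3.58.1), other filters, left-out libraries, fits of only the groups compared and a replicate block. The fit was tested on simulated counts. Figures used matplotlib 3.10.9 in Python 3.11.15.

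The 9 genes, the lists of partners and the tests were chosen with earlier results of these data known. Named were the 9 genes, up to 3 genes of each list by smallest p in HT against HH and up to 2 in TT against TH, and the most alike genes, with placeholder symbols left out; 1 of the most alike genes is not reported here. Arrangements of sites in promoters were described after they were seen.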

Additional observations from a re-analysis of the deposited data

Results flagged for a closer look

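The log2 CPM of each of the 9 genes and their mean were compared within the 4 libraries that share a second treatment and the 4 that share a first one, 40 checks in all, for a library whose gap to its nearest neighbour took more of the range than Dixon's 95% critical value for 4 allows. In 5 checks HH replicate 1 stood apart as the highest library. Chance flags about 1 in 20 independent groups, but these checks reuse the same 8 libraries over correlated genes whose high values in HH replicate 1 were already known, so the number of flags is no separate evidence. Among the 4 libraries given water second (TH and HH), the gap took 0.888 of the range for Inhba, 0.881 for Coq10b and 0.850 for Pdk3. Among the 4 given water first (HT and HH), it took 0.853 for Pdk3 and 0.838 for Sik1.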

How the results depend on the processing

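The count of members called was 0 in all 7 comparisons and under every other setting except without HH replicate 2. Leaving out each library in turn gave 0 to 3 members called in HT against HH, 0 to 4 in TH against HH and 0 to 2 for history averaged, the highest always without HH replicate 2, which rests on HH replicate 1 as the lone control. Counts over all genes then ran from 0 to 32, 0 to 121 and 0 to 100 in these comparisons, from 0 to 7 for the second TTX averaged, 0 to 2 in the interaction, 0 to 1 in TT against TH and stayed at 0 in TT against HT. For the second TTX averaged, DESeq2 called 13 genes and edgeR without a low-count filter 16, none of them a member, against 0; at an unadjusted p under 0.05 edgeR had 789 genes and DESeq2 414.

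Medians over the 9 genes ran, leaving out 1 library each, from -0.91 to 0.10 in HT against HH, -1.08 to -0.19 in TH against HH and -0.22 to 0.87 in the interaction, with HH replicate 1 left out at the end nearest or past 0. They ran from -0.11 to 0.20 in TT against TH, from -0.28 to 0.024 in TT against HT, from -0.84 to -0.24 for history averaged and from -0.61 to -0.0025 for the second TTX averaged. With HH replicate 1 and HT replicate 1 both left out they were -0.14 in HT against HH, -0.19 in TH against HH and -0.039 in the interaction. Of 981 single-gene values under other settings, 65 moved by more than the within-group SD.

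Replicate numbers are shared by all groups, and each comparison has 2 pairs only, so the numbers are not taken as pairing. Deviations of same-numbered libraries correlated at 0.45 between HT and HH and between -0.066 and 0.087 in the other 5 pairs of groups. With the replicate block 0 genes were called in each comparison, and the medians were -0.59 in HT against HH, -0.72 in TH against HH, 0.092 in TT against TH and -0.080 in TT against HT. Few reads limit Ptgs2 and Inhba.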
